A study of Homo sapiens with 8 samples.

Results

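The genes described here are 10 markers and regulators of pluripotent and progenitor cells: PROM1, SALL4, NANOG, POU5F1, LIN28A, LIN28B, KIT, NES, KLF4 and MSI1. They were found by symbol among the probes of an Agilent expression array. They have 14 of the 50599 probes compared, which stand for 10 of 21524 named genes. KIT has 3 probes, POU5F1 and NES have 2 each, and the other 7 genes have 1 each.

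The arrays were hybridised with RNA labelled as coming from NGP, an established human neuroblastoma line. One group of 4 arrays is labelled as NGP cells that received CFC1 cDNA by lentivirus, and the other group of 4 as NGP cells that received a mock lentivirus. Both groups were selected with puromycin. The labels give neither the time after transduction nor whether the cells were a pool or a clone. Nothing states that samples within a group came from separate cultures, so p-values reflect array-to-array spread that may be technical. CFC1 encodes Cryptic, a co-receptor for Nodal, and Nodal and activin signals are known to sustain NANOG in human pluripotent cells. The comparison asks how CFC1 alters the transcripts of this line.

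Pluripotent cells are held in that state by a small set of transcription factors that bind each other's genes, among them POU5F1 (OCT4), NANOG, SALL4 and KLF4. LIN28A and LIN28B are RNA-binding proteins that block the maturation of let-7 microRNAs. PROM1 (CD133) and the receptor kinase KIT are surface proteins of stem and progenitor cells, and NES (nestin) and MSI1 mark neural progenitors. Neuroblastoma arises from the sympathoadrenal lineage of the neural crest, and LIN28B is a known driver of it.

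Each deposited value is a difference from a baseline that is not stated, set for each probe and read here as log2. A value therefore gives no level of expression, and values of different probes cannot be ranked against each other. Nor can the identity of the line be checked from marker levels. The array medians ran from -0.144 to 0.138. The CFC1 probe averaged -0.38 ± 0.335 in the arrays labelled CFC1 and 0.416 ± 0.503 in the mock arrays (SD, n = 4 each). The transduced gene thus did not read higher under its own label (limma difference -0.80, adjusted p = 0.0546). A two-sided exact permutation test gave p = 0.057, where 0.029 is the smallest p that 4 arrays against 4 allow. The probe may also detect the near-identical copy CFC1B, and its position relative to the transduced cDNA is not known, so every direction below rests on the labels.

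Of the 14 probes, 8 were lower and 2 higher in the arrays labelled CFC1 (limma, adjusted p under 0.05), and 4 did not pass. The comparison as a whole called 42.1% of all probes, 22.1% lower and 20.0% higher. Among probes with a gene symbol it called 53.6%, 26.4% lower and 27.2% higher. The groups did not overlap for 10 of the 14 member probes, against 42.6% of all probes and 54.7% of those with a symbol. Lower values by at least 1 log2 unit were called for 6 member probes, 3 of them of KIT and the others of PROM1, SALL4 and NANOG. The share at this size was 8.42% of all probes and 9.24% of those with a symbol. No member rose that far, against 7.22% of all probes. By gene, 5 of the 10 were lower and 2 higher on every probe, where 46.4% of all genes had every probe called in 1 direction. As means of probes 8 of the 10 genes were called, against 57.9% of all genes. The median difference was -0.54 over the member probes and -0.13 over all probes.

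**Figure D1:**
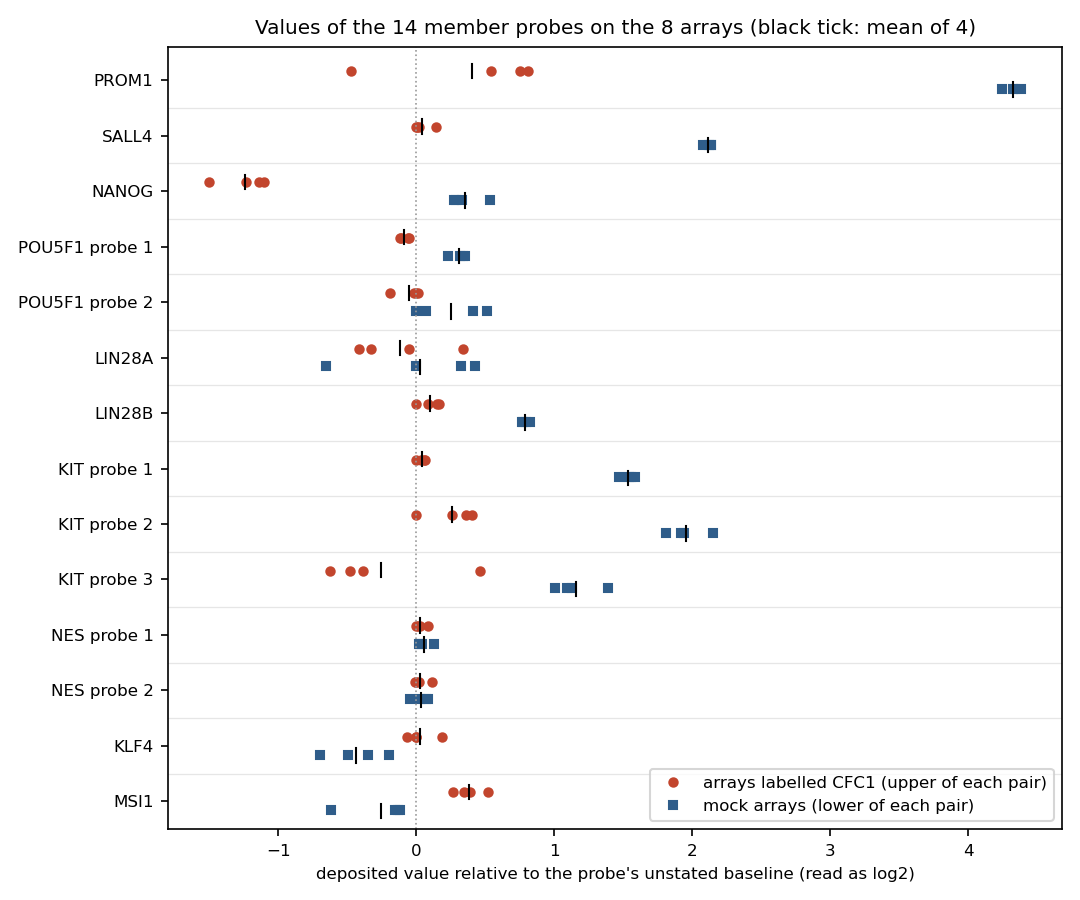
Deposited values (horizontal axis, read as log2, relative to each probe's baseline) of the 14 member probes on the 4 arrays labelled CFC1 (red circles) and the 4 mock arrays (blue squares), with the mean of each group as a black tick. The groups lie apart for 10 probes, and PROM1 has the widest gap, 3.43.

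PROM1 encodes prominin-1, a pentaspan protein of membrane protrusions that is widely used to sort stem-like tumour cells. It had the largest difference among the members. Its probe gave 0.81, -0.48, 0.54 and 0.75 in the arrays labelled CFC1, against 4.24, 4.32, 4.34 and 4.38 in the mock arrays. The mock arrays lay close together, while CFC1 replicate 2 lay about 1 unit below the other 3 arrays of its group. PROM1 fell by 3.91 on the log2 scale (95% interval -4.56 to -3.26, adjusted p = 1.32e-05), a ratio of 0.0663 of arrays labelled CFC1 over mock. Only 0.259% of all probes had a lower difference. Without CFC1 replicate 2 the difference was -3.62. The related gene PROM2 has 3 probes, of which 2 were called higher, and its mean difference was 0.45.

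SALL4 is a zinc finger transcription factor of embryonic stem cells and germ cells. Its probe gave 0.00, 0.016, 0.146 and 0.006 in the arrays labelled CFC1, against 2.07, 2.12, 2.13 and 2.13 in the mock arrays. Both groups were tight, and a gap of 1.93 separated them. SALL4 fell by 2.07 (interval -2.19 to -1.96, adjusted p = 4.73e-08). After quantile normalization SALL4 stood at -1.52, outside that interval. Among its paralogs, SALL2 was lower at -0.83 (adjusted p = 3.56e-06) and SALL1 higher at 0.57 (adjusted p = 3.84e-05), while SALL3 stood at -0.04 (adjusted p = 0.737). These 3 paralogs were picked out after their values were seen.

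NANOG is a homeodomain factor of the pluripotent epiblast. Its probe gave -1.14, -1.23, -1.11 and -1.50 in the arrays labelled CFC1, against 0.28, 0.53, 0.33 and 0.27 in the mock arrays. Here it was the arrays labelled CFC1 that lay farther from the baseline. NANOG fell by 1.60 (interval -1.85 to -1.35, adjusted p = 9.02e-06). After quantile normalization NANOG stood at -2.28, outside that interval. The retrogene NANOGP8 is nearly identical to NANOG and no probe is named for it, so the signal may come from either gene. NANOGNB, a neighbour of NANOG, stood at -0.17 (adjusted p = 0.402).

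POU5F1, the octamer-binding partner of SOX2, had the smallest called fall. Its first probe gave -0.117, -0.108, -0.056 and -0.062 in the arrays labelled CFC1, against 0.335, 0.233, 0.316 and 0.350 in the mock arrays, without overlap. The difference was -0.39 (interval -0.50 to -0.29, adjusted p = 0.000212). After quantile normalization this first probe stood at -0.279 (adjusted p = 0.00686), just outside that interval. The second probe gave 0.010, 0.00, -0.020 and -0.192 in the arrays labelled CFC1, against 0.067, 0.515, -0.006 and 0.414 in the mock arrays. Its groups overlapped through mock replicate 3, and its difference of -0.30 did not pass (interval -0.60 to 0.01, adjusted p = 0.114). Without mock replicate 3 it passed, at -0.38 (adjusted p = 0.0462). The interval of the second probe includes the difference of the first. Copies of POU5F1, such as POU5F1B, may contribute to either probe.

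The windows around the annotated transcription starts of NANOG, LIN28B, KLF4 and KIT are shown as examples, 3 that hold a match to the motifs below and 1, KIT, that holds none. NANOG is a textbook target of POU5F1 with SOX2. Sequences come from RefSeq (GRCh38.p14) and span 300 bases around a start, most of them upstream. Of the 10 members, 6 matched this table, with 10 windows in all. Capitals mark an octamer core (ATGCAAA), a SOX core (ACAAT) or an E-box (CACGTG), searched on both strands.
NANOG, chr12:7789152-7789451, plus strand: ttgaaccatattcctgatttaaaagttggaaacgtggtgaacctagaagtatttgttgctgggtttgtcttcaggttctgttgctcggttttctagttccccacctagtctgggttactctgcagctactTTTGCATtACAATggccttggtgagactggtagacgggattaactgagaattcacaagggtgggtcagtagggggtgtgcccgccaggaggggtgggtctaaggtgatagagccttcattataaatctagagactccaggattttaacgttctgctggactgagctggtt
LIN28B, downstream start, chr6:104956857-104957156, plus strand: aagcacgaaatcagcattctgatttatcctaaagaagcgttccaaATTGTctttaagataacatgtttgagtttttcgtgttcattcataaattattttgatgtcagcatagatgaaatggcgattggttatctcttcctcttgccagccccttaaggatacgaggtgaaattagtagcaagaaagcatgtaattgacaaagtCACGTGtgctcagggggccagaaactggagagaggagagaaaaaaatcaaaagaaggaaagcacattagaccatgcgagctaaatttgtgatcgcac
KLF4, chr9:107489720-107490019, minus strand: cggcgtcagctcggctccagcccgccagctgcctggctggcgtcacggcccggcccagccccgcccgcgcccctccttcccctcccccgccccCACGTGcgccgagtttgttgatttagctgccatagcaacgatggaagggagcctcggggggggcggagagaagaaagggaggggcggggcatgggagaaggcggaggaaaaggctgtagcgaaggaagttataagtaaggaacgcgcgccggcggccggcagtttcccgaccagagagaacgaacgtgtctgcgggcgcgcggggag
KIT, chr4:54657707-54658006, plus strand: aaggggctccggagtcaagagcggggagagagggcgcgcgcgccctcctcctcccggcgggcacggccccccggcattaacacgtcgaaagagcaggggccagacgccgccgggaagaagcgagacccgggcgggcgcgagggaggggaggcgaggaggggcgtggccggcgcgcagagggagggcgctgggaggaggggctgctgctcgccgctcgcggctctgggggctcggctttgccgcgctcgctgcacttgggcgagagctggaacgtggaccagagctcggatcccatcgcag
In the NANOG window an octamer core begins at position -120 relative to the start and a SOX core follows 1 base after it. The octamer core is found in 4.46% of the 35116 windows of the table, the SOX core in 27.4% and the E-box in 7.26%. The same pair and orientation with a single base between, looked up after it was seen, is found in 6 windows, or 0.0171%. The LIN28B window holds an E-box at position -47 and a SOX core, the KLF4 window an E-box at position -157 and the KIT window none of the 3. Over all 10 member windows the octamer core was found in 1, the SOX core in 4 and the E-box in 2. The 4 windows of PROM1, the member with the largest difference, held none of the 3, and the upstream LIN28B window held a SOX core at position -140. A GC box (GGGCGG) was found in 6 of the 10 windows and 45.0% of all windows, and the letters CCACCC in 4 of the 10 and 34.3% of all. These are matches of letters and do not show binding. SOX2, the usual partner of POU5F1 on this pair and chosen after its value was seen, fell by 1.06 (adjusted p = 2.66e-06). It averaged -1.11 ± 0.0834 in the arrays labelled CFC1 and -0.054 ± 0.0417 in the mock arrays (SD, n = 4 each).

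LIN28B was lower and LIN28A did not pass. The LIN28B probe gave 0.00, 0.088, 0.153 and 0.167 in the arrays labelled CFC1, against 0.771, 0.798, 0.765 and 0.824 in the mock arrays. The groups were separated by 0.60, several times the spread within either. The difference was -0.69 (interval -0.81 to -0.57, adjusted p = 1.83e-05). It shrank to -0.31 after quantile normalization (adjusted p = 0.0214), outside that interval. The LIN28A probe gave 0.336, -0.051, -0.419 and -0.331 in the arrays labelled CFC1, against 0.00, 0.426, 0.321 and -0.652 in the mock arrays. Its arrays were scattered in both groups, and the difference was -0.14 (interval -0.78 to 0.50, adjusted p = 0.705). That interval includes the difference of LIN28B, so the paralogs are not shown to differ.

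Genes of the LIN28 and let-7 axis were called in both directions. Of 21 measured, 4 were higher on every probe and 9 lower on every probe, against 24.4% and 21.9% of all genes, and the list median was -0.16 against -0.09 over all genes. DICER1, which cuts let-7 precursors, fell by 1.54 (adjusted p = 2.09e-07). INSR, the insulin receptor and a let-7 target, fell by 1.75 (adjusted p = 1.28e-07). TRIM71, a let-7 target that ubiquitinates proteins in embryonic cells, was higher by 2.11 (adjusted p = 0.00344), and IGF2BP2, an mRNA-binding protein, by 1.40 (both probes, adjusted p of at most 4.55e-05). The chromatin protein HMGA2, a classical let-7 target, was called on none of its 3 probes, which ran from -0.68 to 0.33.

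KIT, the receptor of stem cell factor, was lower on all 3 of its probes. The first gave 0.00, 0.034, 0.055 and 0.062 in the arrays labelled CFC1, against 1.55, 1.47, 1.58 and 1.54 in the mock arrays. The second, annotated to another transcript, gave 0.36, 0.26, 0.41 and 0.00 in the arrays labelled CFC1, against 1.94, 1.92, 2.15 and 1.81 in the mock arrays. The third gave -0.39, -0.62, -0.48 and 0.46 in the arrays labelled CFC1, against 1.01, 1.13, 1.39 and 1.09 in the mock arrays. No probe had overlapping groups, although CFC1 replicate 4 stood nearest to the mock arrays on the third probe and lowest on the second. The differences were -1.50 (interval -1.60 to -1.40), -1.70 (-1.96 to -1.44) and -1.41 (-1.97 to -0.85), with adjusted p-values of 1.28e-07, 8.67e-06 and 0.00179. The intervals overlap each other, so a difference in size between the probes is not shown. After quantile normalization the second probe stood at -1.08 (adjusted p = 0.000871). The first then stood at -1.03 and the third at -1.11. The first and second thus lay outside their intervals.

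The ligand of KIT was lower as well. KITLG, stem cell factor, averaged 0.106 ± 0.0716 in the arrays labelled CFC1 and 2.86 ± 0.0654 in the mock arrays (SD, n = 4 each), a difference of -2.76 (adjusted p = 2.44e-08). Of the 20 genes listed as KIT ligand, adaptors and related kinases, 6 were higher and 8 lower on every probe (24.4% and 21.9% of all genes), with a median of 0.07. LYN, a SRC family kinase that acts downstream of KIT, fell by 2.36 (adjusted p = 2.8e-08). PDGFRA, a kinase of the same class, fell by 2.78 (adjusted p = 9.61e-09), and STAT5A, a transcription factor activated by such receptors, was higher by 2.82 (adjusted p = 5.28e-07).

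NES, an intermediate filament protein of neural progenitors, gave nearly the same values in both groups. Its first probe gave 0.013, 0.00, 0.023 and 0.081 in the arrays labelled CFC1, against 0.030, 0.017, 0.130 and 0.041 in the mock arrays. Its second probe gave 0.00, -0.007, 0.018 and 0.110 in the arrays labelled CFC1, against 0.024, -0.045, 0.081 and 0.069 in the mock arrays. The groups overlapped on both probes. The differences were -0.025 (interval -0.13 to 0.08, adjusted p = 0.683) and -0.002 (interval -0.12 to 0.12, adjusted p = 0.974). At this precision a change of NES beyond about 0.13 log2 units either way lies outside both intervals. The sign turned to 0.115 and 0.128 after quantile normalization, without passing. Of 9 other intermediate filament genes measured, 3 were higher and 3 lower on every probe, against 24.4% and 21.9% of all genes. After quantile normalization 4 were higher and 1 lower. VIM, vimentin, with which nestin copolymerises, was higher by 2.01 (adjusted p = 2.26e-08), and SYNM, synemin, by 0.64 (adjusted p = 0.00011). NEFH, the heavy neurofilament chain, fell by 3.31 (both probes, adjusted p of at most 3.98e-08). DES, desmin, fell by 0.49 (adjusted p = 0.00734), a call lost after quantile normalization (adjusted p = 0.0957).

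KLF4 and MSI1 were the members that rose. KLF4, a Krüppel-like factor used in reprogramming, gave 0.00, 0.00, 0.184 and -0.067 in the arrays labelled CFC1, against -0.695, -0.195, -0.494 and -0.351 in the mock arrays. The groups were separated by 0.128, less than the spread within the mock arrays. The difference was 0.46 (interval 0.19 to 0.73, adjusted p = 0.0127). MSI1, an RNA-binding protein of neural stem cells that represses NUMB, gave 0.345, 0.518, 0.392 and 0.264 in the arrays labelled CFC1, against -0.115, -0.153, -0.135 and -0.616 in the mock arrays. Mock replicate 4 lay well below the other 3 mock arrays. The difference was 0.63 (interval 0.34 to 0.93, adjusted p = 0.00416), and 0.51 without that array.

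Of 16 other KLF genes, 4 were higher and 7 lower on every probe (median -0.01), against 24.4% and 21.9% of all genes. KLF2, a factor of naive pluripotency in the mouse, was higher by 2.33 (adjusted p = 4.52e-08). KLF5, which also maintains mouse embryonic stem cells, fell by 1.61 (adjusted p = 8.87e-06), KLF13 fell by 1.26 and KLF12 fell by 0.95 (highest adjusted p of their probes 5.62e-05). After quantile normalization KLF12 stood at -0.56.

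**Figure D2:**
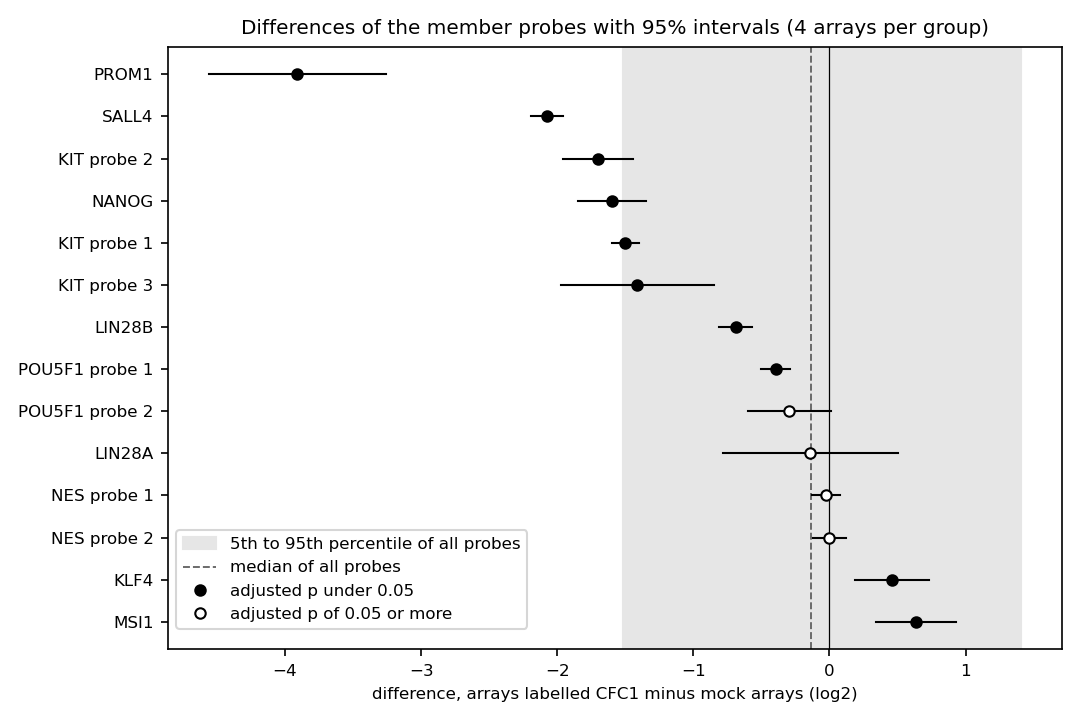
Difference of each member probe (arrays labelled CFC1 minus mock arrays, log2) with its 95% interval from limma, 4 arrays per group, against the range from the 5th to the 95th percentile of all probes (-1.52 to 1.41, grey). PROM1, SALL4, the second KIT probe and NANOG lie below that range, and no member probe lies above it.

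Other genes of the pluripotency network were called in both directions. Of 26 measured, 3 were higher and 7 lower on every probe (24.4% and 21.9% of all genes), and 16 met neither rule. L1TD1, an RNA-binding protein of human embryonic stem cells, averaged -0.256 ± 0.354 in the arrays labelled CFC1 and 1.76 ± 0.341 in the mock arrays (SD, n = 4 each). It fell by 2.02 (adjusted p = 0.000182). NR0B1 (DAX1), a nuclear receptor of stem cells and steroid-producing tissue, fell by 1.91 (both probes, adjusted p of at most 0.000593), and stood at -3.57 after quantile normalization. TBX3, a T-box factor, fell by 1.41 (-0.91 after quantile normalization), and CRIPTO, a relative of CFC1 in the EGF-CFC family, fell by 1.16 (adjusted p = 0.000428). Those higher were LEFTY1 at 0.92 (adjusted p = 0.0252), SALL1 at 0.57 and FOXD3 at 0.39. The call of LEFTY1 was lost with a replicate block (adjusted p = 0.0879) and under other alternatives. The list median was -0.11.

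Neural progenitor genes and stem cell surface markers moved in both directions. Of 14 neural progenitor genes measured, 4 were higher and 3 lower on every probe (median 0.04), close to the 24.4% and 21.9% of all genes. SLC1A3, the glial glutamate transporter GLAST, was higher by 4.18, with its probes at 1.84 and 6.52. SOX3, a factor of early neuroectoderm, was higher by 2.48 (1.55 after quantile normalization). HES5, a Notch target, was higher by 1.26 (adjusted p = 0.00583), and CDH2, N-cadherin, by 1.26 (both probes, adjusted p of at most 9.88e-06). Of 16 surface and ALDH markers, 8 were higher and 4 lower on every probe (median 0.26), against the same shares. FUT4, which makes the Lewis X epitope, was higher by 5.46 (adjusted p = 2.29e-07), ITGA6, integrin alpha 6, by 4.34 (adjusted p of at most 6.74e-07), and ENG, endoglin, by 3.29 (adjusted p = 1.66e-06). NT5E (CD73) was higher on both probes, by 2.43 and 3.57, a call lost without mock replicate 1 (adjusted p = 0.072) or 3 (adjusted p = 0.0643), or without any single array labelled CFC1 (adjusted p from 0.0544 to 0.0724).

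**Figure D3:**
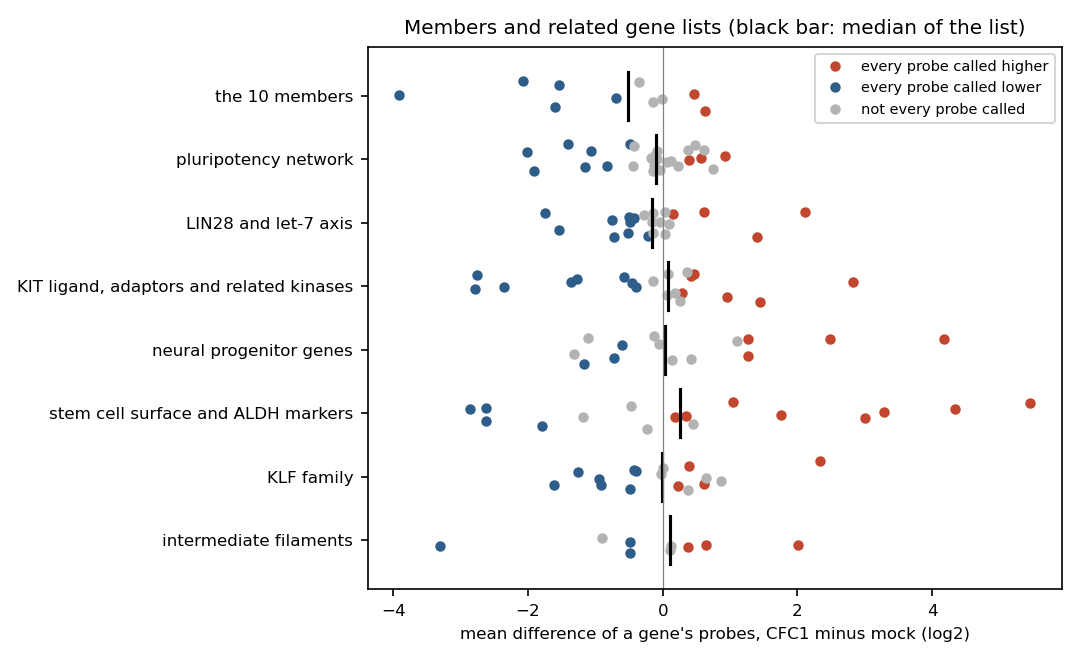
Mean difference of the probes of each gene (arrays labelled CFC1 minus mock arrays, log2) for the 10 members and 7 related lists, red where every probe was called higher, blue where every probe was called lower, grey otherwise, with list medians as black bars. The median of the members is -0.52, the lowest of the lists drawn here, though the copies and relatives (-0.57) and the melanocyte (-0.59) and Schwann cell (-0.88) markers, not drawn, are lower, and the surface markers reach 5.46 at the upper end.

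Markers of 5 other cell types were set beside these values. Of 26 measured markers of endothelium, blood and mast cells, melanocytes, fibroblasts and Schwann cells, 2 were higher and 7 lower on every probe, where all genes gave 24.4% and 21.9%. The endothelial genes KDR and TEK stood at -3.08 and -2.89 (adjusted p = 4.29e-06 and 0.00064), while PECAM1 and CDH5 were not called. KIT is also carried by mast cells and melanocytes. Of 8 blood and mast cell markers, the tryptase TPSAB1 at 1.54 (adjusted p = 0.00122) and CD14 at 1.16 were higher, and the list median was -0.19. Those not called included the mast cell genes MS4A2 at -0.49 and GATA1 at -0.42. Of 4 melanocyte markers, PMEL fell by 2.69 (adjusted p = 1.03e-06), and MLANA at -0.72, DCT at -0.46 and TYR at -0.14 were not called. Of 5 fibroblast markers, COL1A1 at -1.44, PDGFRB at -0.46 and LUM at -0.28 were lower. COL1A2 at -0.05 was not called, and DCN had 1 of 2 probes called lower. LUM lost its call after quantile normalization (adjusted p = 0.0537). Of 3 Schwann cell markers, SOX10 at -0.88 was lower, S100B had 1 of 2 probes called lower, and ERBB3 was not called. Of 6 neuroblast markers, 4 were lower on every probe. These were ISL1 at -2.18 (adjusted p = 1.42e-07), DBH at -0.62 (-0.308 after quantile normalization), HAND2 at -0.41 and GATA3 at -0.35. HAND2 lost its call after quantile normalization (adjusted p = 0.198). PHOX2A at 0.02 was not called, and TH had 1 of 2 probes called higher. The values hold no levels, so which markers were at background cannot be told, and their part in the members' differences was not tested. Fewer cells of a type and less RNA per cell cannot be told apart in these samples.

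Neighbouring genes were examined next. Each member was set beside the 3 genes with a probe on either side of it, in the order of RefSeq genes. Of these 60 neighbours, 9 were higher and 15 lower on every probe, where 24.4% of all genes were higher and 21.9% lower. The share of lower neighbours was thus near that of all genes. Of the 6 neighbours of KIT, on chromosome 4, 5 were lower, with a median of -1.05. The nearest on either side are PDGFRA and KDR, receptor kinases at -2.78 and -3.08, followed by SRD5A3 at -0.85 and SRD5A3-AS1 at -1.25. CHIC2 at -0.23 lost its call after quantile normalization (adjusted p = 0.0836) and after median centring (adjusted p = 0.121). PROM1, on the same chromosome, had 1 of 6 neighbours lower (median -0.48), and SALL4 on chromosome 20 had 2 lower and 1 higher (median 0.04). NANOG on chromosome 12 had 2 higher, SLC2A14, a glucose transporter, at 1.69 and FOXJ2 at 0.90, and 1 lower, CLEC4C at -0.54 (median 0.64). The other 3, SLC2A3 at 1.26 among them, did not have every probe called in 1 direction. NES on chromosome 1 had 3 lower neighbours, CRABP2 at -1.12, ISG20L2 at -0.92 and METTL25B at -1.67, while its own probes did not differ by more than the intervals above.

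**Figure D4:**
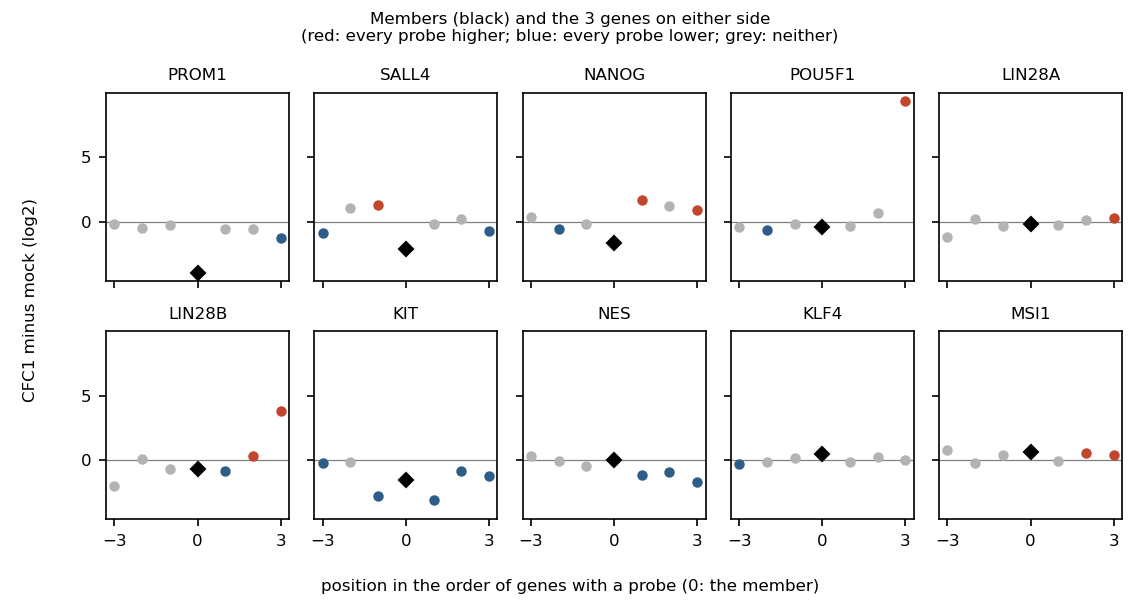
Mean difference (arrays labelled CFC1 minus mock arrays, log2) of each member (black diamond) and of the 3 genes on either side of it, red where every probe was called higher, blue where every probe was called lower, grey otherwise. KIT lies among lower neighbours, down to -3.08, and HLA-C, near POU5F1, stands at 9.32.

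The genes most like the 3 members with the largest differences were found by the root mean square difference of their values over the 8 arrays. For PROM1 these were CCDC152 (0.303), the long non-coding RNA HEIH (0.337) and the small nucleolar RNA SNORD114-30 (0.342), with differences of -3.81, -4.13 and -3.54. For SALL4 the match was closer: KMT5A, a histone H4 methyltransferase (0.0538), MTRFR, a mitochondrial release factor (0.0539), and ARL6IP4 (0.0558). Their differences ran from -2.13 to -2.06. These 3 genes lie within 7 consecutive genes with a probe on chromosome 12, whereas SALL4 lies on chromosome 20. For NANOG they were HID1 (0.119), IRF7, an interferon regulatory factor (0.14), and CYP3A5, a drug-metabolising enzyme (0.14), with differences of -1.74, -1.54 and -1.48. The call of CYP3A5 on both probes was lost under 10 alternatives, among them the replicate block (adjusted p = 0.0608) and quantile normalization (difference -2.25, adjusted p = 0.108). The values compared are relative to baselines set for each probe, and genes picked for like values have like differences by construction. With group differences this common on the array, such likeness is a description only.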

How the data were processed

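RNA of 8 samples was labelled with Cyanine3 for one-colour Agilent arrays, per the labels' protocols. The deposited table holds 50739 rows of values on a log2 scale relative to an unstated baseline, as the authors deposited them. How features were extracted, corrected and scaled, and the log base, is not given in the sources used here; log2 is the reading taken here. The number of arrays limits the precision, and no background flags were used. Leaving out 140 control spots gave 50599 probes, 31993 with 1 gene symbol, none with several and 18606 unnamed here. Symbols of the platform annotation were updated through RefSeq (GRCh38.p14): 28423 by accession, 3069 by symbol, 479 by synonym, and 22 were kept.

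Arrays labelled CFC1 were compared with mock arrays probe by probe with limma 3.58.1 (R 4.3.3; lmFit and eBayes, no trend, no block), with two-sided Benjamini-Hochberg adjustment over all probes and a threshold of 0.05. List genes were counted where every probe was called in 1 direction, and their sizes are means over probes. The text names every member probe, CFC1, up to 4 genes per list with the largest change among those so called, the 3 genes most like each of 3 members, and neighbours. Others were chosen after their values were seen. The members, lists and tests were chosen with earlier results of these data known. The fit was tested on simulated data with independent noise and few changed probes. These data differ from that setting, so the error rate here was not tested. Alternatives were a replicate block, quantile normalization, median centring, array weights, a variance trend, gene means, named probes only, unmoderated variances, natural logarithms and leaving out each array. Python 3.11.15 and scipy 1.17.1 were used for tables and the permutation test.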

Additional observations from a re-analysis of the deposited data

Results flagged for a closer look

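There were 3 groups of 4 arrays, of the 30 formed by 14 member probes and CFC1, that held 1 array far from the other 3 by Dixon's ratio of the gap to the whole range, above its 95% critical value. Chance flags about 1 group in 20. For MSI1 the ratio was 0.925 in the mock arrays, where replicate 4 lay at -0.616 and the others between -0.153 and -0.115. For SALL4 it was 0.888 in the arrays labelled CFC1, where replicate 3 lay at 0.146 and the others between 0.00 and 0.016. For the second POU5F1 probe it was 0.851 in the arrays labelled CFC1, where replicate 4 lay at -0.192 and the others between -0.020 and 0.010. MSI1 and SALL4 kept their calls without any single array, and the second POU5F1 probe passed only without mock replicate 3.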

How the results depend on the processing

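All 10 called member probes kept their direction and their call under each alternative that could be run on single probes. The count of called member probes was 10 under each of these, except 11 without mock replicate 3. As means per gene, 8 of the 10 genes were called. Over all probes the count was 21289, and from 20144 to 20472 when 1 array was left out. It was 18115 after quantile normalization and 18698 after median centring. Means per gene, a fit with fewer features, gave 12456. NES was the exception in sign. Its first probe stood at 0.017 after median centring and 0.115 after quantile normalization, and its second at 0.04 and 0.128. Without 1 array the second probe ran from -0.029 to 0.014. None of these passed. The CFC1 probe passed with array weights (adjusted p = 0.046), gene means (0.0398), named probes only (0.0416), and without CFC1 replicate 1 (0.0393) or mock replicate 4 (0.0376), and it ran from -0.944 to -0.568 when 1 array was left out. Quantile normalization moved SOX2 to -1.69. It moved LIN28B to -0.309, SALL4 to -1.52, NANOG to -2.28 and the first POU5F1 probe to -0.279, outside their intervals in the main fit. The first and second KIT probes, at -1.03 and -1.085, also lay outside theirs. The intervals thus do not cover the choice of normalization. If the values were natural logarithms, PROM1 would differ by -5.65 log2 units. The replicate numbers were not taken as pairs. Correlations of same-numbered arrays over probes were 0.132, 0.197, 0.0953 and 0.173, 1 of them below 0.1. However, each array correlated best with its own number, and arrays of different numbers ran from -0.11 to 0.0591. What same-numbered arrays shared was not tested. With the replicate number as a block 21980 probes and 10 member probes were called, and no member call changed. Adjusted p-values were larger with the block for SALL4 (5.36e-05) and PROM1 (0.000697). Of 476 list counts under alternatives, 10 moved by over 1.5 times. Depth of signal over background is unknown, so falls toward background may be understated.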

Other observations

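Among the surface markers, the 4 that were lower on every probe were not among those named by size, and they were chosen here after their values were seen. EPCAM, an epithelial adhesion protein also found on pluripotent cells, averaged 0.175 ± 0.157 in the arrays labelled CFC1 and 3.04 ± 0.0344 in the mock arrays (SD, n = 4 each). It fell by 2.86 (limma adjusted p = 1.07e-07). ALCAM (CD166) and LGR5, an R-spondin receptor of epithelial stem cells, both stood at -2.63, and NGFR, the low-affinity neurotrophin receptor of the neural crest, at -1.79. CXCR4, a chemokine receptor of migrating progenitors, and PODXL, a sialomucin of pluripotent cells, were higher by 1.75 and 1.04.

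TERT, the catalytic subunit of telomerase, fell by 0.48 (adjusted p = 5.37e-05), and stood at -0.206 after quantile normalization. MSI2, the paralog of MSI1, was lower on both probes, with a mean difference of -0.60 (adjusted p of at most 0.000768), where MSI1 was higher. NUMB, whose mRNA MSI1 is known to repress, fell by 0.73 (both probes, adjusted p of at most 0.000887). Whether this fall is linked to MSI1 was not tested. The related gene NUMBL had 1 of 2 probes called higher and a mean difference of 1.11. In the LIN28 and let-7 list, the mitotic kinase AURKA was higher by 0.62 (adjusted p = 8.97e-05) and MYCN by 0.16 (adjusted p = 0.0388). RAN was lower on both probes, at -0.22, a call lost after quantile normalization (highest adjusted p 0.96). The call of MYCN was lost with a replicate block (adjusted p = 0.0521) and under other alternatives. A link of these genes with LIN28B was not tested. Apart from MSI1, the genes of this paragraph were chosen after their values were seen.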
